A study of Mus musculus with 3 samples.

Results

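Chemokines and their receptors were followed in 3 mouse RNA-seq libraries of cardiac reprogramming. The members were the protein-coding genes whose symbol begins with Ccl, Ccr, Cxcl, Cxcr, Xcl, Xcr, Cx3cl, Cx3cr or Ackr and a digit, and there were 67 such rows with 61 distinct symbols among 54532 genes, 22046 of them protein-coding. They comprised 44 ligand and 23 receptor rows, 60 of them on chromosomes and 7 on unplaced scaffolds. MICFs were cardiac fibroblasts from adult Myh6-mCherry mice, in which the cardiomyocyte promoter of Myh6 drives a red reporter, taken 5 days after myocardial infarction and kept in culture without virus. GMTMS-iCMs (induced cardiomyocytes) came from such cells given Gata4, Mef2c, Tbx5, Myocd and Sall4 from doxycycline-inducible lentiviruses, and GMTMM-iCMs from cells given Mesp1 in place of Sall4. Both were sorted for mCherry after 4 weeks of induction, and 5 sorted samples were combined per library, while the MICFs were dissociated after the same culture time. Each condition had 1 library, so no difference has a replicate check and no p-value is given. Every interval covers counting error only.

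The libraries held 11861773 counts (MICFs), 10624118 (GMTMS-iCMs) and 11904484 (GMTMM-iCMs), which is a floor of 0.253, 0.282 and 0.252 CPM (counts scaled to the library total) at 3 counts. Sall4 was counted 0, 1190 and 1060 times in that order and Mesp1 was at 0 in all 3 libraries, which goes against the label of the last one. It is therefore called the library labelled GMTMM, and each direction drawn from it below is that of a library with the named label and with Sall4 transcripts. Markers of several cell types were present in each library: the 12 macrophage markers summed to 20313.2, 31316.1 and 15521.5 CPM, the 5 fibroblast markers to 11838.7, 1163.39 and 17194.4 CPM, the 6 endothelial markers to 2091.09, 51.4 and 1218.78 CPM, and the 5 cardiomyocyte markers to 3.37, 2567.08 and 1010.21 CPM. In such bulk RNA, fewer cells of a type and less RNA per cell cannot be told apart.

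Chemokines are small secreted proteins that guide leukocyte migration by binding G protein-coupled receptors on the moving cell. CXC ligands with the ELR motif act on CXCR2 and attract neutrophils, the interferon-inducible CXC ligands act on CXCR3 and attract T and NK cells, and most CC ligands act on monocytes, macrophages, eosinophils or lymphocytes. Atypical receptors bind chemokines without the usual G protein signal and remove or redistribute them. In the infarcted heart, macrophages, fibroblasts and endothelial cells are all known sources of chemokines.

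Of the 67 members, 36 had 20 or more counts in at least 1 library (25 ligands and 11 receptors) and are described by value. Differences are given in quantile-normalized log2(FPKM + 1), where FPKM is a fragment count scaled by gene length and library size, and a difference beyond 1 in either direction was taken as a call, higher or lower. Ratios are of the deposited FPKM, without quantile normalization. On these terms 14 of the 36 members were higher in GMTMS-iCMs than in MICFs (38.9%), where 9.41% of the 14083 genes with 20 counts were, and 3 were lower (8.33%), where 9.45% of all genes were. Against MICFs, 18 members were higher in the library labelled GMTMM (50%) against 6.79% of all genes, and 1 was lower (2.78%) against 3.69%. The median difference of the members was 0.48 (GMTMS-iCMs) and 1.02 (library labelled GMTMM), and over all genes it was -0.08 and -0.09. Without quantile normalization the medians of the members were 1.11 and 1.16. The 2 comparisons share the MICFs library. Some members called higher reached 20 counts only through a transduced library and could not have been called lower than MICFs. These were Cxcl3, Cxcl9, Ccl22 and Ccr7 in both comparisons, and Ccl20 and Cxcr6 in the library labelled GMTMM. The same filter was applied to all genes.

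**Figure D1:**
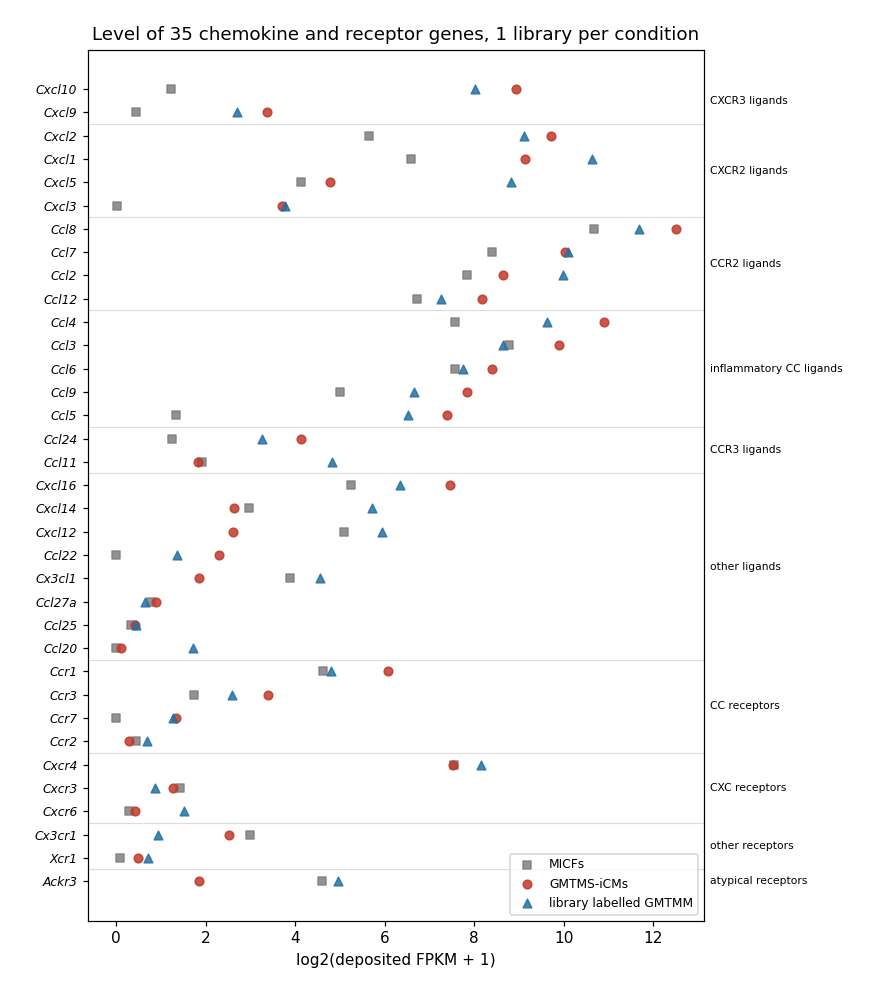
Level of 35 of the 36 members with 20 or more counts, as log2(deposited FPKM + 1) on the horizontal axis, with 1 symbol per library and genes grouped by role; there is no error bar because each condition has 1 library. Cxcl10 moves from near the left edge in MICFs (FPKM 1.36) to 490.2 in GMTMS-iCMs, while Ccl8 is the ligand farthest to the right in all 3 libraries.

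Scaled to library totals, the increase in summed level lay in the ligands. The 44 ligand rows summed to 3754.67 (MICFs), 10967.3 (GMTMS-iCMs) and 11769.0 (library labelled GMTMM) CPM, and the 23 receptor rows to 884.9, 901.5 and 856.2 CPM. Thus members took 0.464%, 1.19% and 1.26% of the counts of the 3 libraries. Among the tested ligands 11 of 25 were higher and 2 lower in GMTMS-iCMs, and 16 were higher and 0 lower in the library labelled GMTMM. Among the tested receptors 3 of 11 were higher and 1 lower in GMTMS-iCMs, and 2 were higher and 1 lower in the library labelled GMTMM. For comparison, calls over the 14083 genes came to 9.41% upward and 9.45% downward for GMTMS-iCMs. For the library labelled GMTMM they came to 6.79% upward and 3.69% downward.

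Both CXCR3 ligands were higher in each transduced library. Cxcl10 (ENSMUSG00000034855), which attracts T and NK cells and is induced by interferons, lies at chr5:92346638-92348889 on the minus strand (GRCm38). It had 44 (MICFs), 10253 (GMTMS-iCMs) and 6761 (library labelled GMTMM) counts, with FPKM of 1.36, 490.2 and 257. Its level in GMTMS-iCMs was 361 (95% interval 269 to 497) times that of MICFs, a difference of 7.48, and in the library labelled GMTMM it was 189 (95% interval 141 to 261) times, a difference of 6.70. These were the largest differences of any member in both comparisons with MICFs, except that Cxcl3 passed Cxcl10 in the second one with edgeR's TMM (7.55 against 7.46) and DESeq2's size factors (8.16 against 7.52). Cxcl9, the gene beside it and a ligand induced mainly by interferon gamma, had 16 (MICFs), 261 (GMTMS-iCMs) and 193 (library labelled GMTMM) counts. Its ratio to MICFs was 25.3 (95% interval 15.3 to 44.9) in GMTMS-iCMs and 14.9 (95% interval 8.92 to 26.5) in the library labelled GMTMM. Cxcl9 was the rarer of the pair and reached an FPKM of 9.32 where Cxcl10 reached 490.2. Cxcr3, the receptor for both, had 42, 23 and 17 counts in the same order, the highest in MICFs, and was called in neither comparison. Transcripts of Ifnb1, which encodes interferon beta, were counted 0, 215 and 142 times, and those of Ifng 0, 0 and 12 times.

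The 4 tested CXCR2 ligands, neutrophil attractants that lie within 147 kb on chromosome 5, were all higher than in MICFs in the library labelled GMTMM, and Cxcl1 and Cxcl5 were lower in GMTMS-iCMs than in that library. Cxcl2 had 1465 (MICFs), 16274 (GMTMS-iCMs) and 13435 (library labelled GMTMM) counts, a ratio to MICFs of 17.2 (95% interval 16.3 to 18.2) and 11.3 (95% interval 10.7 to 11.9). Cxcl3 had 1 (MICFs), 395 (GMTMS-iCMs) and 522 (library labelled GMTMM) counts, and with 1 count in MICFs its ratios of 612 (95% interval 109 to 24231) and 643 (95% interval 115 to 25446) have wide intervals. Both were thus much lower in MICFs than in either transduced library. The ratio of GMTMS-iCMs to the library labelled GMTMM was 0.952 (95% interval 0.833 to 1.09) for Cxcl3. For Cxcl2 it was 1.52 (95% interval 1.49 to 1.56), with a difference of 0.37 that was not a call. Cxcl1, a CXCR2 ligand made by stromal cells and macrophages, had 2554 (MICFs), 9846 (GMTMS-iCMs) and 34645 (library labelled GMTMM) counts, and its ratio to MICFs was 5.97 (95% interval 5.72 to 6.24) in GMTMS-iCMs and 16.7 (95% interval 16.1 to 17.4) in the library labelled GMTMM. Cxcl5 had 441 (MICFs), 457 (GMTMS-iCMs) and 9903 (library labelled GMTMM) counts, with FPKM of 16.5, 26.4 and 455. Its ratio to MICFs was 27.7 (95% interval 25.1 to 30.5) in the library labelled GMTMM, a difference of 4.39, whereas in GMTMS-iCMs the difference was 0.36 and not a call. Between the transduced libraries Cxcl5 stood 17.2 (95% interval 15.7 to 19.0) times higher in the one labelled GMTMM, and its difference of -4.02 was the largest of any member in that comparison on this scale. The fifth ligand of the group, Cxcl15, had 6, 0 and 0 counts. The receptors Cxcr1 and Cxcr2 were at 0 in all 3 libraries, as were the neutrophil markers Ly6g and S100a9, and S100a8 was counted 0, 0 and 2 times. The fourth neutrophil marker, Csf3r, which monocytes and macrophages also express, had 563, 1435 and 675 counts and was higher in GMTMS-iCMs (1.66). Cxcl2 and Cxcl3 share 5.35% and 3.89% of their 50-base words with other transcripts, each other among them, and how reads with several matches were counted is not given in the sources used here.

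The windows of 250 bases before the start of 5 of these genes are printed as chosen examples, not as a sample of the members. Cxcl10, Cxcl9, Cxcl1 and Cxcl2 were higher in both transduced libraries, and Cxcl12, described below, was lower in GMTMS-iCMs. The sequences are those of RefSeq on GRCm38.p6, written 5′ to 3′ on the strand of the gene. Capitals mark matches to an interferon-stimulated response element (ISRE) or to a kappaB site, the motif that the NF-kappaB proteins are known to bind, on either strand, and neighbouring kappaB matches may overlap each other. The windows lie at chr5:92348890-92349139 on the minus strand for Cxcl10, chr5:92328080-92328329 on the minus strand for Cxcl9, chr5:90890995-90891244 on the plus strand for Cxcl1, chr5:90903649-90903898 on the plus strand for Cxcl2 and chr6:117168285-117168534 on the plus strand for Cxcl12.
Cxcl10: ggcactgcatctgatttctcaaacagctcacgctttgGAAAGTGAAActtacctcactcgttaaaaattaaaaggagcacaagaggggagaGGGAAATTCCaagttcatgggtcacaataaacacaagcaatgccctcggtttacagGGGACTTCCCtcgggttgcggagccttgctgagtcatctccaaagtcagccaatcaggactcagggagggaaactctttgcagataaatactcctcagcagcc
Cxcl9: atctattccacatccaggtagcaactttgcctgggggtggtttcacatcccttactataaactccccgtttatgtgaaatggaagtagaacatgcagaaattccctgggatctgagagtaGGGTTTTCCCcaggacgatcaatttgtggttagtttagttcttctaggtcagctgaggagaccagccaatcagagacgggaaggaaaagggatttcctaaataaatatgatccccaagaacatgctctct
Cxcl1: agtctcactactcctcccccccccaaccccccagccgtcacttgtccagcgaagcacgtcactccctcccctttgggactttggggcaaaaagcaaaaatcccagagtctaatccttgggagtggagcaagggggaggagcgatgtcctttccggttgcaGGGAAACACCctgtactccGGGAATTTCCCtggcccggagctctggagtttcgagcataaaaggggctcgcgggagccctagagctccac
Cxcl2: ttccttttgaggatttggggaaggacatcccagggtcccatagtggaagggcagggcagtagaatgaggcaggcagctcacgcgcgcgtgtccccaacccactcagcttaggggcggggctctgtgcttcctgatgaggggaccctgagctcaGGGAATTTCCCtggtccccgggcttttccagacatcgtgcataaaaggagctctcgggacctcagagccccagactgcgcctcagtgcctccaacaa
Cxcl12: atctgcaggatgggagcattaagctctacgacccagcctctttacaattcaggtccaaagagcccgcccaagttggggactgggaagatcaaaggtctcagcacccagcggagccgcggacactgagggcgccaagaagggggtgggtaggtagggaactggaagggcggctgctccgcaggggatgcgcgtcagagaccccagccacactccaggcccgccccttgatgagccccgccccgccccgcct

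In the Cxcl10 window the ISRE match began 213 bases before the start and the kappaB matches 159 and 103 bases before it. Cxcl9 held 1 kappaB match at 130 bases, Cxcl1 held 3 at 90, 71 and 70 bases, Cxcl2 held 2 at 97 and 96 bases, and Cxcl12 held none. A window was found for 26 of the 36 members. Of the 11 members higher in both transduced libraries 7 had a window, and Ccl4, Ccl5, Ccl24 and Ccr7 had none. A kappaB match lay in 6 of those 7 windows (85.7%), in 4 of the 19 other member windows (21.1%) and in 17.6% of all 32851 windows in the table. The other members with a kappaB match were Cxcl3, Ccl22, Ccl20, Ccr1, Ccr3 and Ccl27a. Cxcl3 held the same run of letters as Cxcl1 and Cxcl2, so their windows are not independent. Ccl9, higher in both transduced libraries, held no match, and Ccl27a, called in neither, held 1. The ISRE letters were found in 2 of the 26 windows, those of Cxcl10 and Cxcl14, and in 2.98% of all windows. The gamma-activated letters TTCNNNGAA, which read the same on both strands, were found in 1 of the 26 windows, that of Cxcl14, and in 7.02% of all. No match of one kind overlapped a match of another in these windows. A match describes letters only, and its part in the calls was not tested.

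The 4 ligands grouped here as CCR2 ligands lie in 1 group on chromosome 11 and held the most ligand transcript in every library. They took 67.6% (MICFs), 56.8% (GMTMS-iCMs) and 54.1% (library labelled GMTMM) of summed ligand FPKM. Much of this was Ccl8, which alone took 48.1%, 43.8% and 32.2% of summed ligand FPKM in the same order. Ccl8 was the most abundant ligand in all 3 libraries, with 12105 (MICFs), 27714 (GMTMS-iCMs) and 19795 (library labelled GMTMM) counts and FPKM of 1646, 5839 and 3316. The ratio of Ccl8 to MICFs was 3.55 (95% interval 3.47 to 3.62) and 2.01 (95% interval 1.97 to 2.06), but its quantile-normalized difference was 0.50 in both and no call, because a gene that keeps a place near the top of every library receives nearly the same value. Without quantile normalization these differences were 1.83 and 1.01, so the call for Ccl8 depends on the scale. Ccl7 had 3856 (MICFs), 7734 (GMTMS-iCMs) and 10200 (library labelled GMTMM) counts, with ratios to MICFs of 3.11 (95% interval 2.99 to 3.23) and 3.26 (95% interval 3.14 to 3.38); it was called only in the library labelled GMTMM (1.18, against 0.86 in GMTMS-iCMs), and without quantile normalization both passed, at 1.63 and 1.70. Ccl2, the chief attractant of inflammatory monocytes, had 3719 (MICFs), 4245 (GMTMS-iCMs) and 13516 (library labelled GMTMM) counts. It was higher in the library labelled GMTMM, at 4.48 (95% interval 4.32 to 4.64) times MICFs, and uncalled in GMTMS-iCMs, where its difference of -0.01 became 0.82 without quantile normalization. Ccl12 had 808 (MICFs), 1428 (GMTMS-iCMs) and 949 (library labelled GMTMM) counts and differences of 0.69 and -0.13, neither a call; the first was 1.44 and the second 0.53 without quantile normalization. Ccr2, the receptor that names this group, was rare, at 36, 14 and 49 counts.

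Among the 5 inflammatory CC ligands Ccl3, Ccl4, Ccl5, Ccl6 and Ccl9, 3 were higher in both transduced libraries and 2 were not called. Ccl5 (RANTES), which attracts T cells and monocytes, is at chr11:83525778-83530518 on the minus strand and had 21 (MICFs), 1499 (GMTMS-iCMs) and 1021 (library labelled GMTMM) counts. With FPKM of 1.52, 168 and 91.0, it was 111 (95% interval 72.1 to 179) times MICFs in GMTMS-iCMs and 59.9 (95% interval 39.0 to 97.2) times in the library labelled GMTMM. Its differences were 5.91 and 5.12, next in size to those of Cxcl10 on this scale. Ccl4 (MIP-1 beta), made by activated macrophages, had 1798 (MICFs), 11708 (GMTMS-iCMs) and 6130 (library labelled GMTMM) counts and ratios of 10.1 (95% interval 9.60 to 10.6) and 4.20 (95% interval 3.98 to 4.43). Ccl9, a CCR1 ligand, had 1360 (MICFs), 6415 (GMTMS-iCMs) and 3568 (library labelled GMTMM) counts and ratios of 7.31 (95% interval 6.89 to 7.75) and 3.23 (95% interval 3.04 to 3.44). All 3 stood higher in GMTMS-iCMs than in the library labelled GMTMM, where Ccl9 passed the call (1.08) and Ccl5 did not (0.79). Ccl4 had 0.90 there, and 1.26 without quantile normalization. Ccl3 (MIP-1 alpha), the neighbour of Ccl4, had 4842 (MICFs), 6822 (GMTMS-iCMs) and 3566 (library labelled GMTMM) counts and differences of 0.19 and -0.79; in GMTMS-iCMs its ratio was 2.18 (95% interval 2.10 to 2.27), and its difference 1.12 without quantile normalization. Ccl6, a CCR1 ligand of myeloid cells, had 4879 (MICFs), 5590 (GMTMS-iCMs) and 4476 (library labelled GMTMM) counts and differences of 0.10 and -0.49. Summed over the 12 macrophage markers the level was 20313.2, 31316.1 and 15521.5 CPM, with 3 markers higher in GMTMS-iCMs and 1 higher and 2 lower in the library labelled GMTMM. Without quantile normalization 9 were higher in GMTMS-iCMs and 1 higher and 0 lower in the other. One of them, Cd14, was higher in both libraries (2219, 20292 and 11593 counts). Lyz2 had 116179, 138765 and 84477 counts and, like Ccl8, a place near the top of every library, and its FPKM ratios to MICFs were 1.85 (GMTMS-iCMs) and 0.896 (library labelled GMTMM). Their part in these results was not tested.

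Ligands with other receptors were divided between the libraries. Ccl24, an eosinophil attractant that binds CCR3, had 26 (MICFs), 200 (GMTMS-iCMs) and 129 (library labelled GMTMM) counts, and was 11.9 (95% interval 7.90 to 18.7) and 6.11 (95% interval 3.99 to 9.71) times MICFs. Ccl11 (eotaxin), which uses the same receptor and is made by fibroblasts, had 43 (MICFs), 26 (GMTMS-iCMs) and 347 (library labelled GMTMM) counts; it was 9.94 (95% interval 7.23 to 14.0) times MICFs in the library labelled GMTMM and had a difference of 0.08 in GMTMS-iCMs. Thus Ccl24 was higher in both and Ccl11 in 1 of them. Cxcl14, a ligand of fibroblasts and epithelia, had 179 (MICFs), 89 (GMTMS-iCMs) and 1105 (library labelled GMTMM) counts and followed Ccl11, with a ratio of 7.60 (95% interval 6.49 to 8.96) in the library labelled GMTMM and a difference of -0.30 in GMTMS-iCMs. Cxcl16, the membrane-bound ligand of CXCR6, had 1617 (MICFs), 4948 (GMTMS-iCMs) and 2840 (library labelled GMTMM) counts and a ratio of 4.74 (95% interval 4.48 to 5.02) in GMTMS-iCMs, and its difference of 0.62 in the library labelled GMTMM was 1.09 without quantile normalization. The gene shares 18.3% of its exon bases with Zmynd15 on the opposite strand, and the use of strand in counting is not given in the sources used here.

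A few ligands were not detected in MICFs at this depth. Ccl22, a CCR4 ligand of dendritic cells and macrophages, had 0 (MICFs), 85 (GMTMS-iCMs) and 43 (library labelled GMTMM) counts, at least 43.9-fold and 17.7-fold higher than in MICFs when these are set at the floor of 3 counts. Ccl20, the ligand of CCR6, had 0 (MICFs), 1 (GMTMS-iCMs) and 38 (library labelled GMTMM) counts, at least 15.6-fold higher in the last. Of the 4 dendritic cell markers, Itgax, which macrophages also express, had 155, 421 and 176 counts, Flt3 9, 1 and 37, Zbtb46 119, 44 and 196 and Cd209a 0, 5 and 4. Among the 3 with 20 counts, 1 was called higher in GMTMS-iCMs (Itgax) and 0 in the library labelled GMTMM, and their part was not tested. Ccl25 (27, 24 and 32 counts) and Ccl27a (25, 19 and 16 counts) lay near the minimum in all 3 libraries and were not called, and Ccl27a shares 69.2% of its 50-base words with other annotated genes, so that its count is uncertain.

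**Figure D2:**
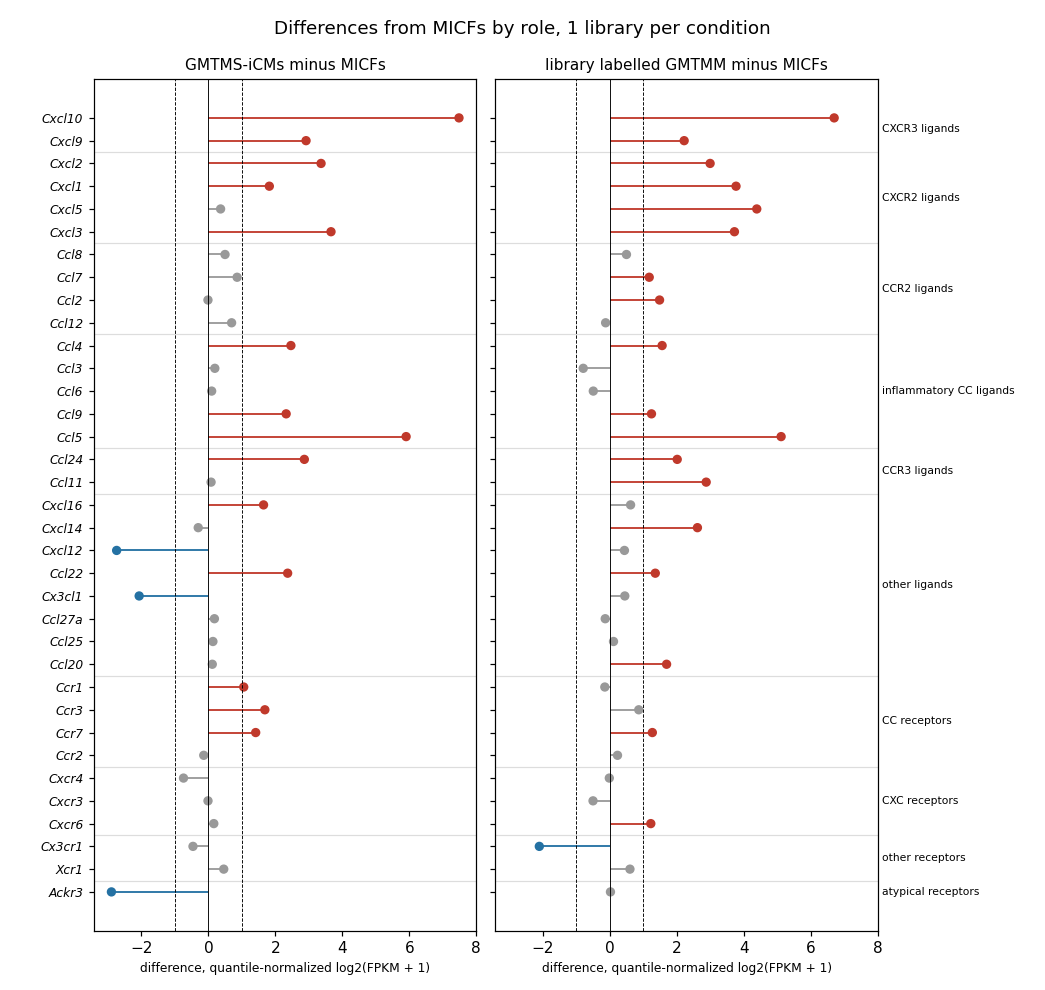
Difference from MICFs of 35 of the 36 members in quantile-normalized log2(FPKM + 1), for GMTMS-iCMs (left) and the library labelled GMTMM (right); dashed lines mark the call at 1, red marks higher, blue lower and grey no call. Lower calls are Cxcl12, Cx3cl1 and Ackr3 on the left (8.33% of members, 9.45% of all genes) and Cx3cr1 on the right (2.78% and 3.69%).

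The members lower in GMTMS-iCMs were Cxcl12, Ackr3 and Cx3cl1, a share (8.33%) near that of all genes (9.45%). Cxcl12, which retains CXCR4-bearing cells in tissue and is made by stromal and endothelial cells, is at chr6:117168535-117181367 on the plus strand and had 3905 (MICFs), 386 (GMTMS-iCMs) and 5825 (library labelled GMTMM) counts. It was 6.53 (95% interval 5.88 to 7.27) times lower in GMTMS-iCMs than in MICFs, and its difference in the library labelled GMTMM was 0.44. Ackr3, the atypical receptor that removes CXCL12, had 1127 (MICFs), 82 (GMTMS-iCMs) and 1187 (library labelled GMTMM) counts and was 8.87 (95% interval 7.09 to 11.2) times lower in GMTMS-iCMs, with 0.02 in the other. Cx3cl1 (fractalkine), a ligand tethered to endothelial and other cells, had 778 (MICFs), 96 (GMTMS-iCMs) and 1033 (library labelled GMTMM) counts and was 5.23 (95% interval 4.23 to 6.54) times lower in GMTMS-iCMs, with 0.45 in the other. GMTMS-iCMs thus held the lowest level of all 3. None of them was called for the library labelled GMTMM against MICFs, where the FPKM ratios were 1.84 (95% interval 1.76 to 1.91) for Cxcl12, 1.30 (95% interval 1.19 to 1.41) for Ackr3 and 1.64 (95% interval 1.49 to 1.80) for Cx3cl1. In the same libraries all 5 fibroblast and all 6 endothelial markers were lower in GMTMS-iCMs than in MICFs, as with Col3a1 (91516, 6501 and 117523 counts) and Pecam1 (7237, 107 and 4932 counts). In the library labelled GMTMM 0 of 5 fibroblast markers were lower and 1 was higher, and 3 of 6 endothelial markers were lower; without quantile normalization 2 fibroblast markers were higher and 1 endothelial marker lower. The part of these markers in the result was not tested.

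Cxcr4, the signalling receptor for CXCL12, was the most abundant receptor in every library, with 4843 (MICFs), 3080 (GMTMS-iCMs) and 5972 (library labelled GMTMM) counts, or 69.0%, 56.6% and 76.5% of summed receptor FPKM. Its FPKM of 186, 183 and 283 gave a ratio to MICFs of 0.985 (95% interval 0.941 to 1.03) in GMTMS-iCMs and 1.52 (95% interval 1.46 to 1.58) in the library labelled GMTMM, and neither difference (-0.74 and -0.02) was a call. Ccr1 and Ackr3 were nearly level in MICFs, with FPKM of 23.5 and 23.4. Ccr1 stood above Ackr3 in GMTMS-iCMs (66.6 and 2.64), and Ackr3 above Ccr1 in the library labelled GMTMM (30.4 and 27.0).

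Receptors of the CC group were higher mainly in GMTMS-iCMs. Ccr1, a receptor of monocytes and macrophages, had 958 (MICFs), 1752 (GMTMS-iCMs) and 892 (library labelled GMTMM) counts and was 2.83 (95% interval 2.62 to 3.07) times MICFs in GMTMS-iCMs, with a difference of -0.15 in the library labelled GMTMM. Ccr3, the eotaxin receptor, had 111 (MICFs), 288 (GMTMS-iCMs) and 192 (library labelled GMTMM) counts and a ratio of 4.02 (95% interval 3.22 to 5.05) in GMTMS-iCMs; its difference of 0.86 in the library labelled GMTMM was not a call and passed 1 under 3 of the 6 other settings. Ccr7, which guides mature dendritic cells and naive T cells to lymph nodes, had 0 (MICFs), 28 (GMTMS-iCMs) and 33 (library labelled GMTMM) counts, at least 14.5-fold and 13.6-fold higher than in MICFs set at 3 counts. Ccr7 was called in both libraries, and Ccr3 joined it under those 3 settings. Cx3cr1, the fractalkine receptor of monocytes and macrophages, had 454 (MICFs), 198 (GMTMS-iCMs) and 48 (library labelled GMTMM) counts and was 7.68 (95% interval 5.69 to 10.6) times below MICFs in the library labelled GMTMM, with -0.46 in GMTMS-iCMs. With library totals in place of quantile normalization the latter lay just past the call. Of the 12 macrophage markers 1 was higher (Cd14) and 2 lower (Csf1r and Mrc1) in that library, with 0 lower without quantile normalization, and their part was not tested.

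Cxcr6, a receptor of effector T and NK cells, had 6 (MICFs), 6 (GMTMS-iCMs) and 42 (library labelled GMTMM) counts and a ratio of 8.62 (95% interval 3.65 to 24.8) in the library labelled GMTMM. Of the 6 T and NK cell markers 4 were higher there than in MICFs, Cd3d (3, 0 and 30 counts), Cd3e (4, 4 and 57), Cd8a (1, 1 and 63) and Nkg7 (4, 1 and 62), while Cd4, which macrophages can carry, was highest in GMTMS-iCMs (241, 508 and 229). The 6 markers summed to 21.4, 48.4 and 37.0 CPM and Ncr1 was at 0 in both transduced libraries. Their part in the Cxcr6 count was not tested. Xcr1, a receptor of cross-presenting dendritic cells, had 4 (MICFs), 17 (GMTMS-iCMs) and 33 (library labelled GMTMM) counts and was not called, at 0.46 and 0.60; with a pseudocount of 0.1 both passed, at 1.79 and 2.14. The 3 B cell markers summed to 0.0843, 0.471 and 1.09 CPM.

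Below 20 counts in every library were 31 members. Of these 13 were at 0 in all 3 libraries, Ccl1, Ccl28, Cxcl17, Ccr4, Cxcr1 and Cxcr2 among them along with repeated rows of Ccl19, Ccl21 and Ccl27 genes on chromosome 4 and on scaffolds. The other 18 had between 1 and 18 counts, with Ackr4, a scavenger of the CCR7 ligands, the highest at 18, 0 and 3. The lymphoid ligand Cxcl13 had 14, 1 and 4 counts, and Xcl1, made by activated T and NK cells, 1, 1 and 8. No fold is given for any of them.

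The direct comparison of the 2 transduced libraries called 16 of the 36 members. In GMTMS-iCMs 6 stood higher than in the library labelled GMTMM (16.7%, where 6.32% of all genes did) and 10 lower (27.8%, where 9.83% did), with a median of 0.23 over the members and 0.06 over all genes. By ratio they included Cx3cr1 (5.19 times), Ccr1 (2.47 times), Ccl22 (2.49 times), Ccl9 (2.26 times) and Cxcl16 (2.19 times). These 5 are known from cells of the monocyte and macrophage line, and 6 of the 12 macrophage markers (10 without quantile normalization) were also higher in GMTMS-iCMs, Mrc1 (1.50) and Ptprc (1.58) among them. The 10 were Cxcl5 (-4.02), Cxcl12 (-3.18), Cxcl14 (-2.92), Ackr3 (-2.92), Ccl11 (-2.80), Cx3cl1 (-2.51), Cxcl1 (-1.95), Ccl20 (-1.58), Ccl2 (-1.50) and Cxcr6 (-1.06). In the same comparison all 5 fibroblast markers and 5 of 6 endothelial markers were lower in GMTMS-iCMs, and the part of any marker was not tested. Both CXCR3 ligands leaned towards GMTMS-iCMs without a call, Cxcl10 at 0.78 and Cxcl9 at 0.70, with ratios of 1.91 (95% interval 1.85 to 1.97) and 1.70 (95% interval 1.41 to 2.06). The calls for Cxcl16, Ccl22 and Cxcr6 were lost under at least 1 other scaling, and the remaining 13 held in each. Ccl20 and Cxcr6 reached 20 counts only in the library labelled GMTMM, so they could not have been called higher in GMTMS-iCMs.

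**Figure D3:**
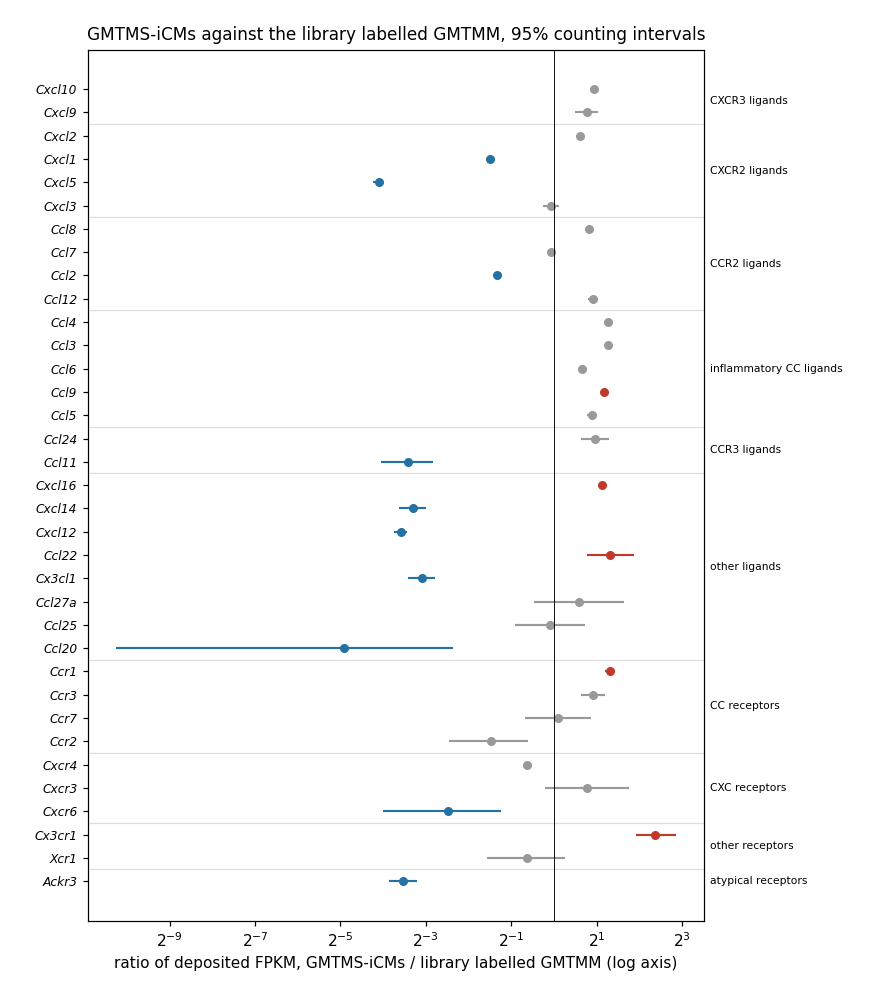
Ratio of deposited FPKM, GMTMS-iCMs over the library labelled GMTMM, on a log axis for 35 of the 36 members, with exact 95% intervals that cover counting error only; red and blue mark members called higher and lower, grey no call. Cxcl5 and Ccl20 lie farthest to the left and Cx3cr1 farthest to the right, and the interval of Ccl20 is wide because it had 1 count in GMTMS-iCMs.

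Shares within the ligands shifted along with the totals. CXCR2 ligands took 4.69% (MICFs), 10.9% (GMTMS-iCMs) and 25.3% (library labelled GMTMM) of summed ligand FPKM, and CXCR3 ligands 0.0504%, 3.75% and 2.55%. The 5 inflammatory CC ligands took 24.8%, 27.0% and 15.5%. Cxcl1 alone was the next ligand after Ccl8 in the library labelled GMTMM, whereas Ccl4 held that place in GMTMS-iCMs and Ccl3 in MICFs.

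Many of these genes lie side by side, and neighbours differed in behaviour. On chromosome 11 the group from Ccl2 to Ccl1 (82035571-82305690) had 0 of 5 tested members called higher in GMTMS-iCMs, with 3 in the library labelled GMTMM (Ccl2, Ccl7 and Ccl11). Without quantile normalization 3 passed in GMTMS-iCMs (Ccl7, Ccl8 and Ccl12) and 4 in the other library, so the contrast in that group depends on the scale. The next group on that chromosome, from Ccl5 to Ccl4 (83525778-83664683), had 3 of 5 higher in each (Ccl5, Ccl9 and Ccl4), with Ccl6 and Ccl3 between them uncalled on this scale. On chromosome 5 the group from Cxcl5 to Cxcl2 (90759360-90905938) had 3 of 4 higher in GMTMS-iCMs, with 4 of 4 in the library labelled GMTMM, and the pair Cxcl9 and Cxcl10 (92321347-92348889) was higher in both. On chromosome 9 the receptor group that begins with Ccr9 had 2 of 6 higher in GMTMS-iCMs (Ccr1 and Ccr3) and 1 in the library labelled GMTMM (Cxcr6).

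**Figure D4:**
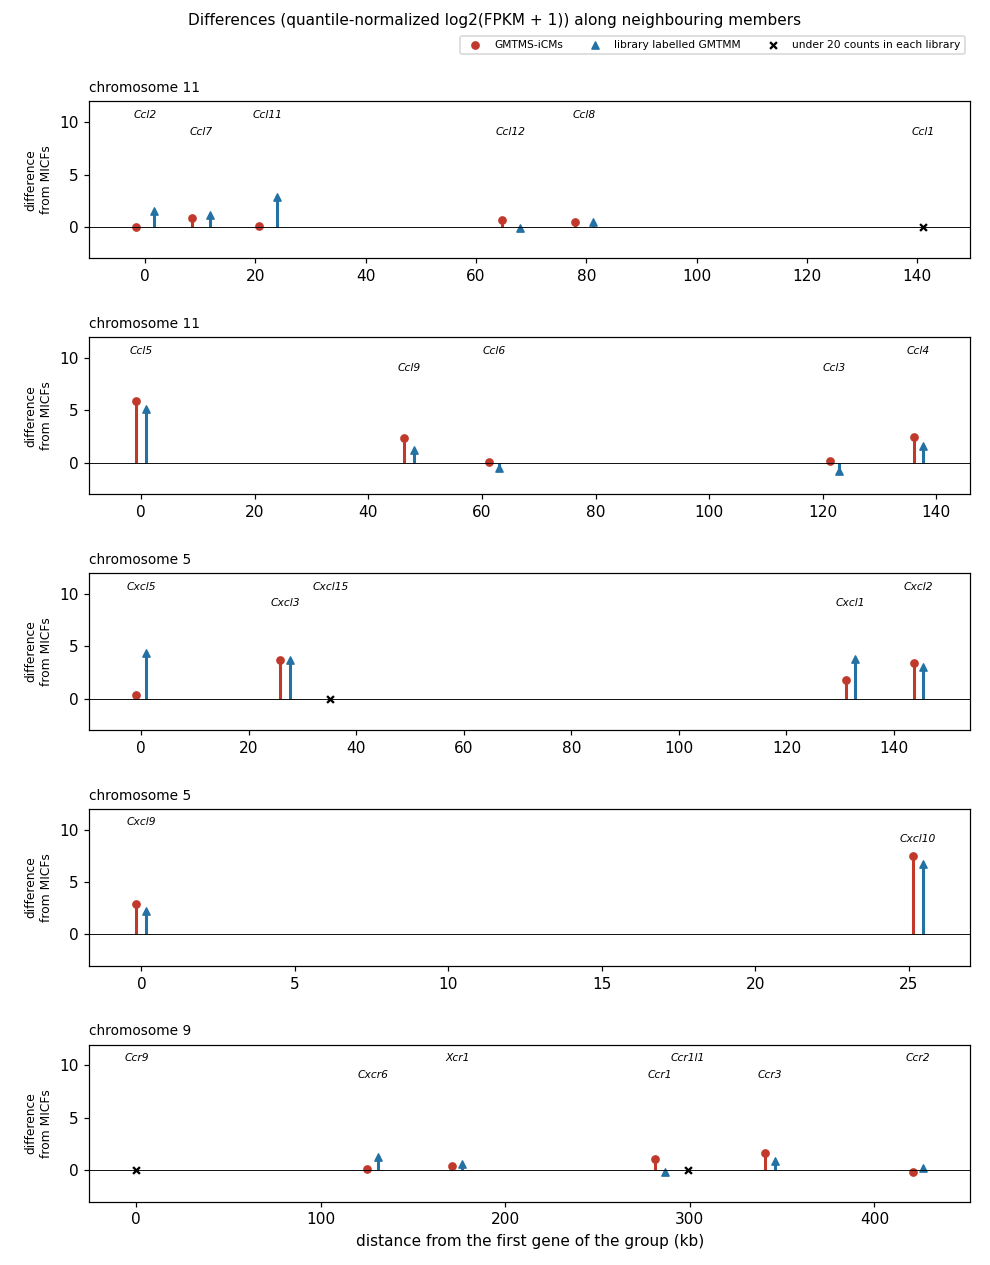
Difference from MICFs along 5 groups of neighbouring members, with distance from the first gene of the group in kb on the horizontal axis and the quantile-normalized log2(FPKM + 1) difference on the vertical axis; the 2 symbols of a gene are set slightly apart, and crosses mark members under 20 counts, drawn at 0. Cxcl10 and Ccl5 carry the tallest pairs, while Ccl11 and Cxcl5 pass 1 in the library labelled GMTMM and not in GMTMS-iCMs.

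Genes of the chemokine signalling list, which holds signal transducers, regulators and a few related ligands and receptors, were called in both directions. Of the 24 listed genes 23 had 20 counts. In GMTMS-iCMs 6 were higher and 3 lower (median 0.06), where 9.41% and 9.45% of all genes were. In the library labelled GMTMM 3 were higher and 4 lower (median -0.42), where 6.79% and 3.69% of all genes were. Without quantile normalization 8 were higher and 1 lower in GMTMS-iCMs, and 4 higher and 1 lower in the other library. Pik3r5, a subunit of the PI3K gamma that chemokine receptors activate, had 891 (MICFs), 7616 (GMTMS-iCMs) and 3011 (library labelled GMTMM) counts and was higher in both, with differences of 3.32 and 1.77. Ccrl2, a chemerin-binding relative of the chemokine receptors, was also higher in both (2422, 13641 and 7842 counts). Higher in GMTMS-iCMs were further Grk3, a kinase that desensitizes receptors (1.58), the platelet-type chemokine Pf4 (1.45), Plcb2 (1.41) and Vav1 (1.21), and lower were Grk5 (-1.86), Arrb1, which encodes a beta-arrestin (-1.04), and Gnai2 (11549, 6160 and 8385 counts in the 3 libraries), the last just past the call. Of these 3 lower genes Grk5 stayed past the call without quantile normalization, while Arrb1 and Gnai2 had FPKM ratios of 0.547 and 0.826. In the library labelled GMTMM the third higher gene was Rgs16, which shortens G protein signals, with 545, 198 and 4238 counts and a difference of 2.84. Lower there were Arrb2 (-1.18), Arrb1 (-1.15), Pik3cg (-1.11) and Gng2 (-1.08). Of these Pik3cg stayed past the call without quantile normalization, and Arrb1 had an FPKM ratio of 0.516.

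The listed inducers of chemokine genes were mostly higher. In GMTMS-iCMs 13 of 16 tested were called higher, where 9.41% of all genes were. In the library labelled GMTMM 12 were, where 6.79% of all genes were. In both, 0 were lower, and the medians were 2.30 and 2.13. Tnfaip3, a target and inhibitor of NF-kappaB, had 1151 (MICFs), 21401 (GMTMS-iCMs) and 22830 (library labelled GMTMM) counts, with differences of 4.39 and 4.27. The NF-kappaB subunits Nfkb1 (2.68 and 2.42), Nfkb2 (2.42 and 1.98) and Relb (2.17 and 2.29) and the inhibitor Nfkbia (2.59 and 2.90) were higher in both, and Rela had 0.66 and 1.14, with FPKM ratios of 2.33 and 3.17. Among the interferon factors Irf1 (3.39 and 3.49), Irf7 (1.69 and 1.70) and Stat2 (1.69 and 1.24) were higher in both. Irf9 lay at the call in each (1.01 and 0.90), with FPKM ratios of 2.37 and 2.18, and Irf3 was called in neither (-0.68 and -0.70). The cytokine Il1b had 378 (MICFs), 6037 (GMTMS-iCMs) and 2786 (library labelled GMTMM) counts and was highest in GMTMS-iCMs. Il6 had 122 (MICFs), 772 (GMTMS-iCMs) and 11635 (library labelled GMTMM) counts and was highest by far in the library labelled GMTMM, 6.45 against 2.88. Tnf had 807, 2530 and 1432 counts and differences of 1.71 and 0.67, with FPKM ratios of 4.86 and 2.19. Without quantile normalization 14 of the 16 were higher in each library.

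**Figure D5:**
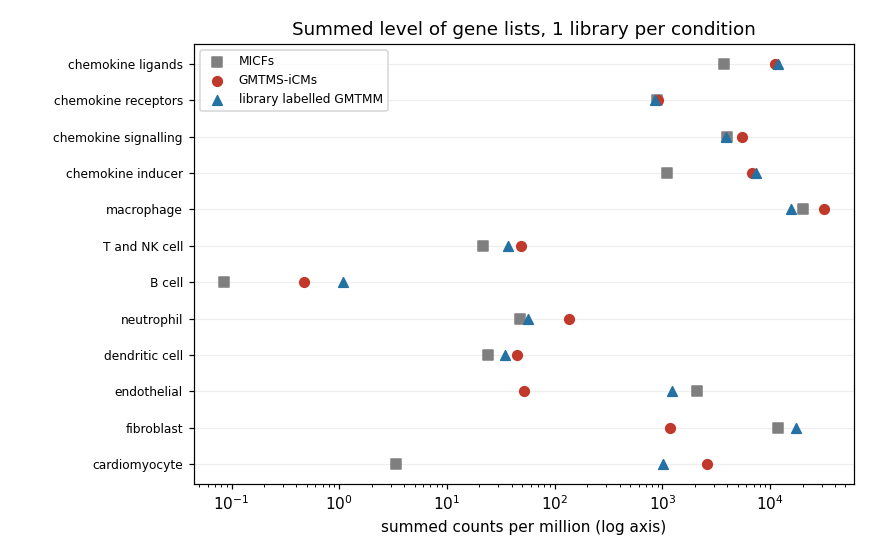
Summed CPM of the members and of each gene list in the 3 libraries, on a log axis, 1 symbol per library. The ligands and the inducers lie to the right of MICFs in both transduced libraries, and the fibroblast and endothelial lists are lowest in GMTMS-iCMs. The sum of the receptors barely moves on this scale of library totals, and is higher in both transduced libraries in deposited FPKM. In GMTMS-iCMs 3 of 11 tested receptors were called higher and 1 lower, where 9.41% and 9.45% of all genes were.

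The gene most like Cxcl10 among the members, by distance over the 3 centred values in quantile-normalized log2(FPKM + 1), was Ccl5 at 1.29, followed by Cxcl3 at 2.84. Among all other genes with 20 counts the 10 nearest, at distances of 0.400 to 1.56, included the sarcomere genes Actc1, Myh6, Tnnt2, Myl7 and Acta1, and the inflammatory genes Il1rn, the antagonist of the interleukin 1 receptor, and Acod1, which makes itaconate in macrophages. Nr4a3, an early-response nuclear receptor, the ribosomal protein gene Rpl29 and the non-coding 5430431A17Rik made up the rest. Il1rn had 153, 30811 and 13996 counts in the 3 libraries and Actc1 1, 4765 and 2313, so that both followed the order of Cxcl10, lowest in MICFs and highest in GMTMS-iCMs. With 3 values per gene, this likeness describes these libraries alone.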

How the data were processed

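RNA was sequenced from 3 libraries, 1 per condition, with paired reads of 150 bases. The authors deposited the raw count of each gene and its FPKM. Recomputed from counts and gene lengths, the FPKM used library sizes of 14389264 (MICFs), 9287868 (GMTMS-iCMs) and 11680913 (GMTMM-iCMs), which equal the product of DESeq2's size factor and the geometric mean of the 3 totals. The submitters' processing notes name HISAT2 2.0.5 and mm9, without roles, whereas the gene identifiers and coordinates are Ensembl's on GRCm38. The counting tool is not given in the sources used here. The column named cMF was taken as MICFs because it alone names no cocktail.

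As in the study's methods, FPKM were quantile-normalized over the 3 libraries (Python 3.11.15, numpy 2.4.6, pandas 2.3.3) and transformed to log2(FPKM + 1). A difference over 1 was then taken as a call, a rule set here and not the study's, among 14083 genes with at least 20 counts in 1 library. Fold changes divide one deposited FPKM by another, and their exact (Clopper-Pearson) 95% intervals come from both counts (SciPy 1.17.1). Against 0 counts a floor of 3 counts in that library was used. These cover counting error only. Every member with 20 counts is named but 1, which is not reported here and stays in the counts, with the called genes of the signalling and inducer lists and the 10 non-members nearest Cxcl10. Members and lists were chosen with earlier results of these data known. Neighbouring members were grouped at gaps of up to 500 kb. Counts were simulated for GMTMS-iCMs against MICFs from 1 shared mean profile with counting noise only, and 200 of 13458 genes were changed 4-fold. Of the changed genes 90.5% were recovered, 4 of 13258 unchanged genes were called, and the intervals held the true fold in 94.5% of 11320 genes. The changed genes and those of the intervals were drawn only from genes with an expected count in MICFs well above the minimum. They were scaled to library totals, and members with few counts in MICFs are not covered. The simulation checks the calculation only, because it holds no variation between libraries and far fewer changed genes than were called in the data.

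The alternatives were no quantile normalization, library totals, TMM of edgeR 4.0.16, DESeq2 1.42.0 size factors (both in R 4.3.3), a pseudocount of 0.1, protein-coding genes only, other count minimums and other call thresholds. No count test was run, since no condition has a replicate.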

Additional observations from a re-analysis of the deposited data

Results flagged for a closer look

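Signal lay in rows outside the member rule, which takes protein-coding genes only. Cxcl11, the CXCR3 ligand that the annotation lists as a polymorphic pseudogene, had 0 (MICFs), 104 (GMTMS-iCMs) and 57 (library labelled GMTMM) counts, at least 53.7-fold and 23.4-fold higher than in MICFs set at the floor of 3 counts. Ccl19-ps3, an unprocessed pseudogene on chromosome 4, had 22 (MICFs), 1 (GMTMS-iCMs) and 190 (library labelled GMTMM) counts, with a ratio to MICFs of 10.6 (95% interval 6.83 to 17.4) in the last. Each was counted more often in a transduced library than in the untransduced MICFs, and neither enters the member counts above.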

How the results depend on the processing

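All 17 member calls of GMTMS-iCMs and all 19 of the library labelled GMTMM against MICFs held under each of 6 other settings (4 scalings, a pseudocount of 0.1, protein-coding genes only), as did 13 of 16 between the transduced libraries. The count of members called higher ran from 14 to 21 in GMTMS-iCMs and from 18 to 22 in the library labelled GMTMM under these settings. With a call at a difference over 2, 9 and 10 members were higher than in MICFs, and 0 were higher and 6 lower in GMTMS-iCMs than in the library labelled GMTMM. In all, 50 of 54 alternative counts lay within 1.5 times the reported one. The median over members was 1.11, 0.81, 1.21 and 1.31 for GMTMS-iCMs against MICFs without quantile normalization, with library totals, with TMM and with DESeq2 size factors, and 1.16, 1.39, 1.67 and 1.70 for the library labelled GMTMM, where a pseudocount of 0.1 gave 1.22. Between the transduced libraries it was 0.51 with TMM and 0.58 with size factors. Library totals moved the median of all genes to -0.46, -0.26 and -0.13 in the 3 comparisons, and the share of all genes called in GMTMS-iCMs against MICFs to 8.67% higher and 25.7% lower, so differences on that scale are read against these shifts. Of 648 alternative differences of single members 257 moved and 0 reversed a call, and the cause was not tested. Uncalled members changed sign under some setting in 5, 4 and 3 cases. The gene lists were counted again under the same 6 settings, chosen after seeing the data. Against MICFs, macrophage markers called higher in GMTMS-iCMs ran from 2 (library totals) to 9, signalling genes from 6 to 9 with 1 to 5 lower, and inducers from 12 to 14 with 0 to 1 lower. For the library labelled GMTMM, macrophage markers called lower ran from 0 to 2, signalling genes called higher from 3 to 4 with 1 to 4 lower, and inducers from 12 to 14 with 0 lower. No paired analysis was possible because there was only 1 library for every condition. At these depths a gene at 0 counts may still be present at up to 0.253 to 0.282 CPM.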
